A study of Ginkgo biloba with 2 samples.

Results

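Among the microRNAs (miRNAs) of Ginkgo biloba leaves, 71 of 723 known miRNA names carried a high number and an unusually long sequence. The members were the names numbered 1000 or higher whose listed sequence was 23 or more bases long in every library that listed them, after 16 names treated separately were left out. The number of a miRNA name follows the order in which families were registered, so a high number stands in for families described late and mostly in few plants. Whether a name is conserved was not tested. The libraries were made from mature leaves of outdoor trees about 30 years old, 1 from female trees and 1 from male trees. Ginkgo is a gymnosperm with separate female and male trees, and the sources used here do not state if 1 tree or a pool gave each library. Neither sex has a replicate, so each difference described is one between these libraries, and no p-value was computed for it.

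Plant miRNAs are cut from hairpin transcripts by Dicer-like enzymes and guide ARGONAUTE proteins to complementary RNA. The usual miRNA enzyme, DCL1, leaves products shorter than those described here, while DCL3 leaves longer ones, most of which are small interfering RNAs that direct DNA methylation. In rice, some miRNAs are also made by a DCL3 enzyme at the longer length and are loaded into AGO4, and in Arabidopsis AGO4 favours a first base A and AGO1 a first base U.

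The sequences that carry the results are given 5′ to 3′ as listed in the deposited files, in DNA letters, with the seed (bases 2 to 8) in capitals. The first 5 are those of the members with the highest mean level, and miR5766 and miR4385 were listed in the male library only, miR5517 in the female library only.
miR5766: tTCGAGGTgagagagaagagcaag
miR5059: tTCGTGCCtgggcagcaccacca
miR5517: aTGACAGTctcggcgcatatgtag
miR4385: aGATTGATgtagaaaagcatggt
miR5275: aGCTGGAGctcacgtgcgagttt
The next 7 are the 24-base sequences that were listed identically in both libraries, shown because 6 of them were at least 2-fold apart between the libraries, all with more male reads, while miR3520 had 5 reads in each.
miR5718: tCAGAGAAcaacacaagcaacaag
miR6116: tCGAATTTgatgacaagcatgtag
miR1511: aTCTTAGCtctgataccatgtaga
miR3513: tCTGATAAgagtagaagagttgat
miR1863: tTAGCTCTgataccatgtagaaat
miR7747: aTCAGATTgttttagtggttggat
miR3520: aGGATGAGgtagaatatcttaggc

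The long names held few reads. The female library totalled 13193290 reads and the male library 12137619, so that 1 read was worth 0.0758 and 0.0824 RPM (library reads scaled to a common total, the authors' unit) and a name without a read had an upper limit of 3 reads, 0.227 and 0.247 RPM. The members took 10079 reads in the female library, which was 0.408% of all reads on known names (exact Clopper-Pearson 95% interval 0.401 to 0.416%). In the male library they took 42329 reads, or 1.73% (1.71 to 1.75%). Without miR5766 and miR5517, the highest member of each library, the shares were 0.160% and 0.355%. Intervals and limits here cover counting error only, since reads amplified by PCR without molecular identifiers are not independent molecules.

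Of the 71 members, female leaves held 35 and male leaves 52, and 16 (22.5%) had reads in both. Among the other 537 names numbered 1000 or higher, 239 (44.5%) were found in both. The rule itself shapes this contrast. It counts 29 names with 23 or more bases in 1 library and fewer in the other among the 239. With 23 or more bases in at least 1 library, female leaves held 64 of 100 names and male leaves 81. No lower overlap of long names was therefore read from the contrast. The members found in 1 library comprised 36 in the male and 19 in the female library. Among the other high-numbered names this split was 141 and 157, and among all 723 known names 193 and 191. The male library had fewer reads in total, and a link between depth and this split was not tested.

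Many members sat at the limit of detection. No library held more than 3 reads of 37 members (52.1%), against 129 of the other high-numbered names (24.02%). Of the members seen in the male library only, 17 had 1 read, 6 had 2 or 3 reads and 13 had more. Of those seen in the female library only, 6 had 1 read, 7 had 2 or 3 and 6 had more. The median over members with a read was 4 reads in each library, against 22 and 18.5 reads for the other high-numbered names. The rule shapes these contrasts as well. A name listed in 1 library has only 1 sequence that must be long, and the 29 names long in 1 library only count among the others. No trait of long names was therefore read from the numbers of reads.

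**Figure D1:**
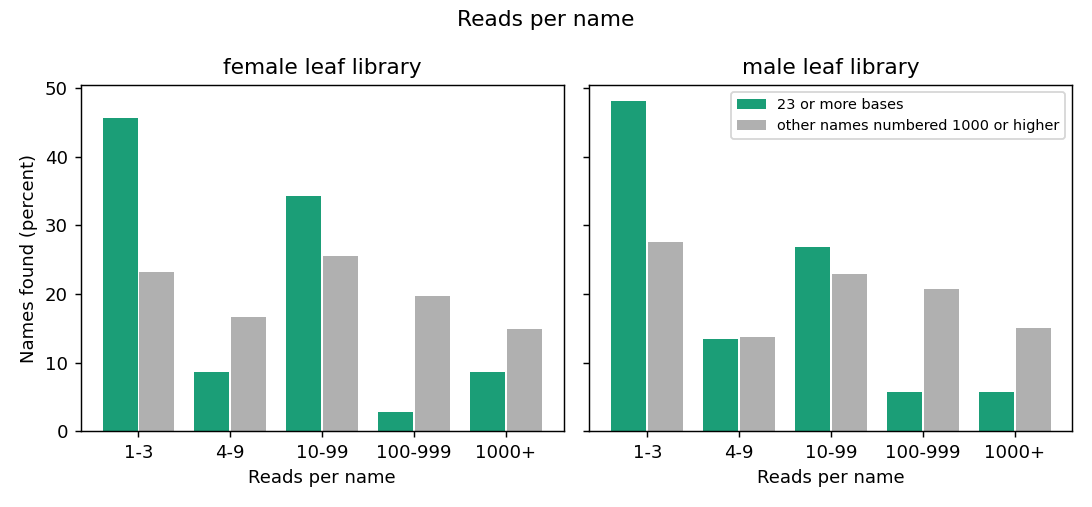
Share of the names found in each library (percent, linear axis from 0) by reads per name, for the 71 names of 23 or more bases (green) and the other 537 names numbered 1000 or higher (grey). Names with 1 to 3 reads made up 45.7% and 48.1% of the long names and 23.2% and 27.6% of the others in the female and male library. The rule shapes this contrast, as the grey names hold the 29 names long in 1 library only.

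Nearly all reads of the long names belonged to 5 of them. The 3 highest members took 96.0% of the member reads in female leaves and 96.3% in male leaves. The 66 members below the first 5 by mean level summed to 30.8 RPM (female) and 81.0 RPM (male). The length threshold did not fall at a gap in level. Members of 23 bases, just inside it, were 11 names in female leaves (median 0.303 RPM, range 0.0758 to 179) and 14 in male leaves (median 1.98 RPM, range 0.0824 to 308). High-numbered names of 22 bases, just outside, were 38 names (median 0.493 RPM, range 0.0758 to 1106) and 39 names (median 2.06 RPM, range 0.0824 to 1326). Another 29 high-numbered names had 23 or more bases in 1 library and fewer in the other, and were not members. They summed to 3673 RPM (female) and 1297 RPM (male).

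**Figure D2:**
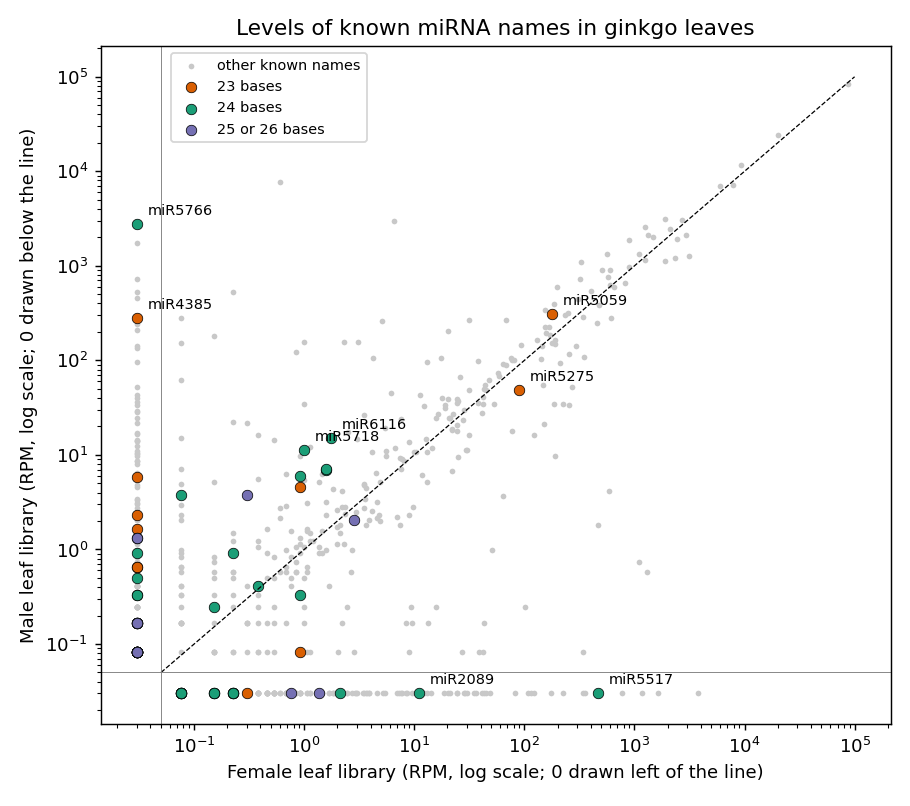
Level of each known name in the male library (vertical) against the female library (horizontal), in RPM on log axes, with names without a read drawn beyond the thin lines. Members of 23, 24 and 25 or 26 bases are coloured by their longest listed sequence. All other known names are grey, also those of 23 or more bases that are not members. miR5766 (2771 RPM) and miR4385 (279 RPM) stand on the left edge and miR5517 (465 RPM) on the lower edge, while miR5059 and miR5275 lie near the dashed line of equal levels.

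The member with most reads, miR5766, stood at 2771 RPM in the male library, where it was the 10th most abundant known name and took 79.5% of the member reads, and at 0 in the female library. With the female level at its limit of 3 reads, the male level was at least 12186-fold higher. miR4385 stood at 279 RPM in the male library and at 0 in the female library, at least 1225-fold higher. miR5517 went the other way, with 465 RPM in the female library, 60.8% of the member reads there, and no male read, at least 1881-fold higher. Each of these names was thus among the 50 most abundant known names of 1 library and without a read in the other. No listed sequence of the other library came within 6 edits of any of them on either strand: the nearest was 7 edits away for miR5766 (miR835), 7 for miR4385 (miR5304) and 9 for miR5517 (miR167). Only 1 sequence per name was listed, so the search cannot show if similar reads were counted there under another name. The bounds above hold for the names.

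miR5059 and miR5275 were the most abundant members found in both libraries, and neither changed its listed sequence between them. miR5059 stood at 179 RPM in female and 308 RPM in male leaves (2360 and 3744 reads), 1.72-fold higher in male leaves (exact 95% interval of the read ratio 1.64 to 1.82). miR5275 stood at 89.4 and 48.4 RPM (1179 and 588 reads), 1.84-fold higher in female leaves (1.67 to 2.04). With the values scaled by the median ratio, miR5275 passed 2-fold on the log2(RPM + 1) scale (log2 ratio 1.10). Both intervals lay apart from equal levels, on opposite sides. Of the remaining members at 10 or more RPM, miR2089 had 145 female reads (10.99 RPM) and no male read, at least 44.5-fold higher in female leaves.

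Among the 8 of 71 members that reached 10 RPM in either library, 2 favoured female leaves by 2-fold or more, 4 favoured male leaves likewise and 2 differed by less than that, by log2 of (female RPM + 1) over (male RPM + 1). That scale understates the difference of low names. The same call was made for 29.3% and 33.2% of all known names at 10 or more RPM, so the members' 25% and 50% come from too few names to set apart from these shares. The median log2 ratio was -1.67 over the 8 members and -0.27 over all such names. Over all 71 members without a minimum, the whole exact interval of the read ratio exceeded 2-fold for 5 members in favour of female and 16 in favour of male leaves, where the background over all 723 names was 17.3% and 18.5%.

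Of the 16 members with reads in both libraries, 12 were higher in male leaves, beside 58.1% of all 339 known names found in both. Of the 16, 10 were higher in male leaves with an interval that left out equal levels, beside 39.8% of the 339. The other 4 members were higher in female leaves. Those with such an interval on the female side were 2 of the 16 (miR5275 and miR5750), beside 25.4% of the 339. It is not known if a count holds reads of the listed sequence only or also of variants under that name, so a ratio is that of the name even where the listed sequence did not change. The listed sequence was the same in both libraries for 10 of the 16 (62.5%), against 99 of 239 other high-numbered names (41.4%). The rule shapes this contrast too. It puts the 29 names long in 1 library only, whose sequences differ by definition, among the 239, so no trait of long names was read from it. Of the 10 members with the same listed sequence, 9 were higher in male leaves (8 with scaling by the median ratio), beside 64.9% of all 151 known names listed with 1 and the same sequence.

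**Figure D3:**
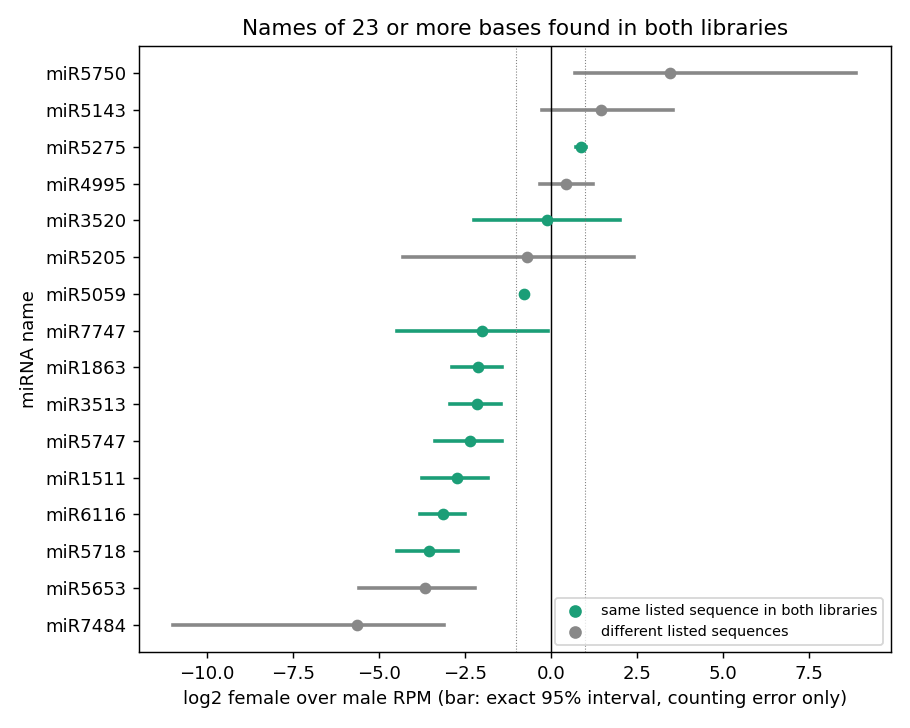
Log2 ratio of female over male RPM for the 16 names of 23 or more bases found in both libraries, with the exact 95% interval of the read ratio as a bar (counting error only) and dotted lines at 2-fold. Green names were listed with 1 sequence for both libraries. Of the 10 green names 9 lie left of equal levels, miR3520 among them with a bar that spans it, and miR5275 lies to the right.

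Of the 7 sequences of 24 bases listed identically in both libraries, all low, 6 were higher in male leaves with an interval that left out equal levels. miR5718 had 13 female and 138 male reads (0.985 and 11.4 RPM), 11.5-fold higher in male leaves (interval 6.53 to 22.2). miR6116 had 23 and 184 reads (1.74 and 15.2 RPM), 8.70-fold higher (5.62 to 14.1). miR1511 had 12 and 73 reads (0.910 and 6.01 RPM), 6.61-fold higher (3.57 to 13.4). These names reached 6.01 RPM or more in male leaves and stayed under 2 RPM in female leaves. miR3513 had 21 and 86 reads (1.59 and 7.09 RPM), 4.45-fold higher (2.74 to 7.55). miR1863 had 21 and 84 reads (1.59 and 6.92 RPM), 4.35-fold higher (2.67 to 7.39). The lowest of them were miR7747 with 3 and 11 reads, a ratio of 3.99 (1.05 to 22.2), and miR3520 with 5 reads in each library, whose interval (0.25 to 4.72) spans equal levels and which moved to the female side under median ratio scaling.

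So 6 of these 7 names had a male level of 2-fold the female RPM or more, with a median log2 female over male ratio of -2.15. The background of this call over the 151 names with the same listed sequence was 20.5%. Over the 141 such names of 22 or fewer bases, 24 (17.0%) passed it, with a median of -0.25. Of the 64 shorter names with a mean under 20 RPM, 11 (17.2%) passed, with a median of -0.16. Among these, 2 of the 4 names of 22 bases passed, with a median of -0.98. With scaling by the median ratio the counts were 6 of 7 and 20 of 141 (14.2%). The 7 names rest on 98 female reads, the comparison by length was made after the values were seen, and miR1511 and miR1863 overlap in sequence. Since the listed lengths of all other reads of a library were not analysed here, no statement on 24-base RNA as a class follows.

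**Figure D4:**
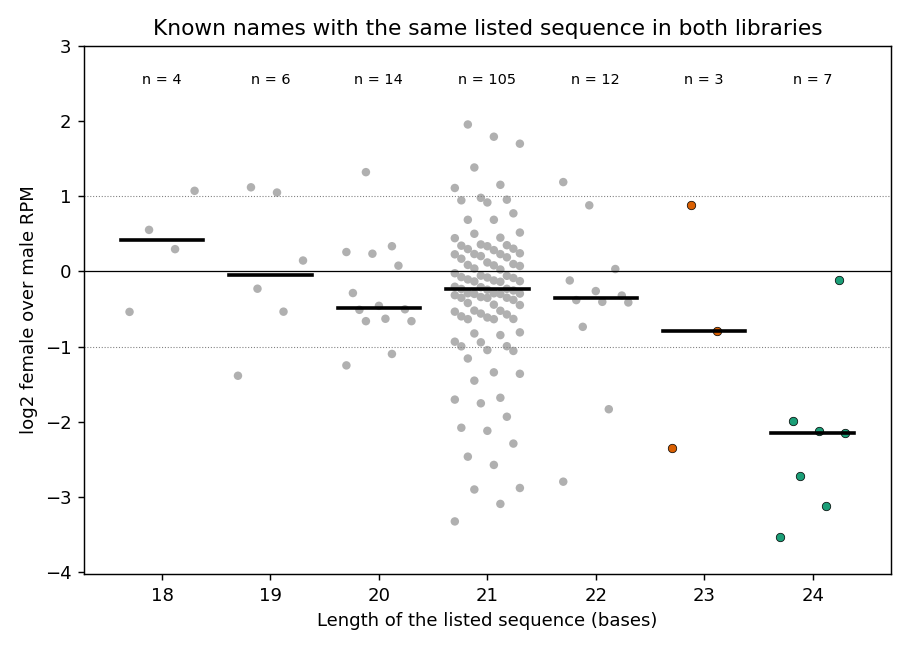
Log2 ratio of female over male RPM for each of the 151 known names listed with 1 sequence for both libraries, by the length of that sequence, with the median as a bar and dotted lines at 2-fold. Coloured points are names of 23 (orange) or 24 (green) bases numbered 1000 or higher. The 24-base names have a median of -2.15, the 105 names of 21 bases one of -0.23.

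The 23-base names listed identically in both libraries did not share a direction. Beside miR5059 and miR5275, the third was miR5747, which had 12 female and 56 male reads (0.910 and 4.61 RPM), 5.07-fold higher in male leaves (interval 2.69 to 10.4). Its sequence, aAAAAAGActcatacaaactact, shared a stretch of 18 bases with the male sequence of miR6276, a name with 2 male reads.

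Some of the names with the largest male excess had different listed sequences in the libraries, so their ratio may compare different RNAs. miR5653 had 4 female and 46 male reads (12.5-fold, 4.56 to 47.8) with sequences 6 edits apart. miR7484 had 1 and 46 reads (male over female 8.54 to 2017 as the interval), also with sequences 6 edits apart. In the other direction miR5750 had 12 and 1 reads (11.04, 1.63 to 472) with sequences 10 edits apart and miR5143 had 12 and 4 reads (2.76, 0.836 to 11.7) with sequences 9 edits apart. miR5205 had 2 and 3 reads with sequences 7 edits apart. By contrast the miR4995 sequences were shifted copies that share 21 bases, starting at base 5 of the female and base 1 of the male sequence.
miR4995 female: tATAGGCAgtggcttggttaaggga
miR4995 male: gGCAGTGGcttggttaagggaacc
The shift left the 2 libraries with different seeds and first bases under 1 name, while the level was alike, at 2.80 and 2.06 RPM (37 and 25 reads, female over male 1.36, interval 0.798 to 2.36).

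The first base of the long names was A more often than in the other high-numbered names. In the male library 24 of 52 members began with A (46.2%) and 25 with T, U in RNA (48.1%), against 30.8% and 50.8% of the other high-numbered names. In the female library 13 of 35 began with A (37.1%) and 16 with T (45.7%), against 29.0% and 49.0%. C and G together opened 3 male members, miR5250 and miR5205 with C and miR4995 with G. The A names were most frequent at 23 bases, with 11 A and 3 T in the male and 6 A and 3 T in the female library. At 24 bases T led, with 13 A and 20 T in the male and 7 A and 10 T in the female library. High-numbered names of 22 bases began with A in 16 of 38 female and 12 of 39 male names. A first base A was thus not particular to the long names. These shares were not tested, since the names are not replicates.

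By reads, a single name set the first base in each library. Reads of members that began with T made up 89.8% in the male library, most of them miR5766, and reads that began with A made up 74.5% in the female library, most of them miR5517. Lengths behaved in the same way. Sequences of 24 bases were listed for 20 of 35 female and 35 of 52 male members and took 63.7% and 81.2% of the member reads. Those of 25 or more bases were 4 and 3 names with 69 and 19 reads, and the longest, miR6183 with 26 bases, had 2 male reads.

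From textbook lists, 9 miRNAs made at the 24-base length by a DCL3 enzyme in rice were looked for, of which 4 were in the tables and 2, miR1863 and miR1873, were members. miR1863 was listed with 24 bases in ginkgo too. miR1873 was listed with 23 bases and had 3 reads, all from female leaves. The non-members among the rice names, miR1850 and miR1862, had listed sequences of at most 22 bases. Of 8 families that target NBS-LRR disease resistance genes in other plants, 6 were in the tables and none was a member. The presence of a rice name here says only that the authors' search matched a read to it.

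Both rice names belonged to a group of sequences with a common core. The core of 12 bases, GCTCTGATACCA, was searched on both strands of all listed sequences and was found in 7 of 723 names (0.968%), 3 of them members. It is shown in capitals, and in miR1873 the capitals are its reverse complement.
miR1863: ttaGCTCTGATACCAtgtagaaat
miR1511: atcttaGCTCTGATACCAtgtaga
miR1873: tacaTGGTATCAGAGCggctaag
miR7782, male: caccGCTCTGATACCAtgtagaa
miR8155, male: cgtaacctgGCTCTGATACCA
miR5139: aacctgGCTCTGATACCA
miR845, male: tggtGCTCTGATACCAattgacgt
miR1511 and miR1863 shared 21 bases, offset by 3, so the split of reads between them is uncertain. Joined, they had 33 female and 157 male reads, 5.17-fold higher in male leaves (interval 3.53 to 7.77). The male sequence of miR7782 shared 19 bases with miR1863.

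The core alone did not go with 1 direction. miR7782 was 27.2-fold higher in male leaves (7 and 175 reads, 12.9 to 68.6), but with another sequence listed in the female library. miR8155 was 1.59-fold higher in male leaves (1.38 to 1.84, different listed sequences), miR5139 was 1.23-fold higher in female leaves (1.08 to 1.40) and miR845 had 15 reads in each. miR1873 carried 16 bases of the opposite strand of miR1511 and miR1863.

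Overlapping sequences also appeared under different names in the libraries. miR7731 had 18 reads in the female library only, and its sequence shared 17 bases with that of miR3705, which is no member and had 28 reads in the male library only.
miR7731, female: tggttagcactctggactttgaatc
miR3705, male: gtagtggttagcactctggac
Joined, the pair stood at 1.36 and 2.31 RPM, which is 1.69 as male over female (interval 0.903 to 3.25). By its own name miR7731 was at least 5.52-fold higher in female leaves against a limit of 3 male reads, while the shared stretch was listed in both libraries. The sequence of miR4385 shared 16 bases with the male sequence of miR6485, which stood at 9.64 RPM there. In the female library miR6485 was listed with another sequence.

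No seed was shared between members. Their listed sequences held 77 distinct seeds, none of them on more than 1 member. Another known name carried 12 of these seeds (15.6%), among them those of miR1858 (with miR5523), miR3520 (with miR6136) and miR5750 (with miR7122), and none of these other names was numbered below 1000. Over all known names, 7.65% of the 824 distinct seeds were on more than 1 name. This share counts a seed once for all the names that carry it. The member share counts seeds that never recur among the members. The shares are thus on unlike bases, and no excess of shared seeds was read from them.

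A few long names were simple repeats. A run of 12 or more bases that repeats a unit of at most 8 bases was found in 2 of 35 female members (5.71%) and 3 of 52 male members (5.77%), against 2.02% and 1.32% of the other high-numbered names. The members are longer by the rule, which leaves more room for a run of fixed minimum length, and few names are counted. No excess of repeats in long names was therefore read from these shares. miR1858 held 17 bases of a 3-base unit and miR5750 15 bases of a 4-base unit in its female sequence. miR8005 held 14 bases of a 7-base unit. The others were miR6285 and miR1120, with 1 and 2 male reads.
miR1858, female: ggaggaggaggaggaggtggtggc
miR5750, female: atagacagatagatagatagaca
miR8005, male: tttagagtttagggtttaggttta
All 28 reads of miR1858 were female, and miR8005 had 16 male reads and no female read.

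Predicted targets were listed for fewer of the long names. The authors' target lists are predictions from the sequences and not measurements, with a tool that the sources used here do not name. Targets were given for 13 of 35 members in the female library (37.1%) and 16 of 52 in the male library (30.8%). For the other high-numbered names these shares were 73.5% and 67.6%. Of the members with targets, 25 in either library, 19 had 1 or 2 distinct targets, and the median was 2.

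The abundant members had few targets or none. miR5766 had 2 leaf contigs, assembled ginkgo leaf transcripts without annotation in the files, miR4385 had 2 targets, miR5275 had 1, and miR5059, miR5517, miR6116 and miR5718 had none. The most targets belonged to the repeat sequence miR1858, with 43 distinct targets, of which 35 were leaf contigs. miR5747 and miR5250 followed with 7 each, and miR1863 and miR4995 had 6 each.

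Shared targets linked a few members. 5 public nucleotide records were listed for miR4995, miR5250 and miR5747 alike, and 26 other known names also had at least 1 of them. miR1863 and miR7992, which had 1 male read, shared 1 leaf contig. Of the 6 members found in both libraries with any target, 4 had identical lists, among them miR4995, whose sequences differed by a shift. The others of these 4, miR1863, miR5275 and miR5747, were listed with the same sequence in both libraries, so identical predictions were to be had in advance. miR5653 and miR5750, with different sequences, had targets in the female library only.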

How the data were processed

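Each library had a level table and a second table of known miRNA names, and a target table. The deposited level tables, named TPM by the authors, hold RPM: every value was a whole number of reads over 1 library total (100% of values above 0 and below 60 RPM, to within 0.01 read). The second table holds counts of raw reads, deposited for each name with 1 sequence, and they equalled the level table. The sources used here do not name the choice of that sequence, the aligner, the miRNA database or the target tool. The authors' target number (no measurement) equalled the listed identifiers in every row.

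The members and lists were chosen with earlier results of these data known. Named members were the 10 most abundant by mean RPM, the 8 most extreme log2 ratios on each side, those with the same listed sequence at 10 or more RPM, the 3 with the most targets, and members of 2 textbook lists (rice 24-base miRNAs, NBS-LRR regulators). Ratios carry exact 95% intervals (conditional binomial, Clopper-Pearson; SciPy 1.17.1, Python 3.11.15), tested on simulated data. Both lists and all comparisons are given in the results. Tables of predicted miRNAs were not used here. Alternatives were other pseudocounts, minimums, scalings, length rules and thresholds.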

Additional observations from a re-analysis of the deposited data

How the results depend on the processing

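Members at least 2-fold higher numbered 2 (female) and 4 (male) of 8. They became 4 and 15 of 71 without a minimum, 1 and 2 of 4 at 100 or more RPM, and 0 and 2 of 4 with the same listed sequence alone. By read intervals (chosen after seeing the data) they became 5 and 16 of 71. With 23 or more bases in at least 1 library they became 7 and 6 of 18, and with 24 or more bases 2 and 3 of 5. Scaling by the median ratio gave 3 and 4 of 8, a pseudocount of 10 gave 2 and 3, and a 1.5-fold threshold 3 and 5. Shares of all known names are given above for the main rule and for read intervals only. For the other settings no bias towards a sex was read from the counts. The median log2 ratio of -1.67 became -1.92 and -0.86 with a pseudocount of 0.1 and 10, -0.11 without a minimum, -4.45 at 100 or more RPM, -1.48 with scaling by the median ratio (a shift of -0.23), -2.56 for 24 or more bases and -2.06 over members with reads in both libraries (chosen after seeing the data). It reversed to 0.50 with 23 or more bases in at least 1 library, which adds names whose listed sequences differ. The shares of known reads, 0.408% and 1.73%, became 0.263% and 1.40% for 24 or more bases, 2.37% and 2.37% with 23 or more bases in at least 1 library, 0.148% and 0.203% with the same listed sequence, and 0.160% and 0.355% without miR5517 and miR5766 (chosen after seeing the data). Members found, 35 and 52 of 71, became 19 and 27 with more than 3 reads. They became 64 and 81 of 100 with 23 or more bases in at least 1 library, and 23 and 37 of 50 with 24 or more bases. The log2 ratios of the 22 named members kept their sign in all 88 recomputations with another pseudocount or scaling. A pseudocount cannot change the sign, and scaling cannot change it for a name without reads in 1 library. Most named members were chosen for level or extreme ratio, so these recomputations could hardly show a change of direction. miR3520, which is not among the 22, changed side with scaling by the median ratio. No paired analysis was possible because there is 1 library per sex, and no library could be left out.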
